A study of Mus musculus with 12 samples.

Results

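The genes described here build ribosomes and are widely listed among the targets of the transcription factor Myc. They form a set of 49 genes that encode factors of rRNA transcription, rRNA processing and modification, ribosome assembly and nuclear export, together with enzymes of polyamine and pyrimidine synthesis. Members were found by gene symbol in the array annotation, and each was represented by its transcript cluster (the array's unit for 1 gene or transcript) with the highest mean signal. Of the 49 genes, 47 had a cluster that carried their symbol alone, out of 19938 such genes and 23410 clusters with a symbol that were tested. Ppan, a large subunit maturation factor, lay only on a cluster that also carried other symbols, and no cluster was listed for Noc2l, so neither was analysed here. Nothing in these data measured binding by Myc, so its name stands for the label of the set and for the levels of the Myc genes given below.

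RNA of B-cell precursors purified from bone marrow was hybridised to 12 Mouse Gene 1.0 ST microarrays (Affymetrix) in 3 groups of 4. The mice were 1 month old and housed under specific pathogen free conditions. The first group lacked 1 copy each of Cd72 and Pax5 (Cd72+/-;Pax5+/-, called double heterozygous here), the second lacked 1 copy of Pax5 (Pax5+/-), and the third was wild type (WT). Pax5 encodes the transcription factor that commits cells to the B lineage, Cd72 encodes an inhibitory receptor of B cells, and the labels call the cells of both mutant groups preleukemic. The comparisons ask what loss of 1 Pax5 copy changed, and what the added loss of 1 Cd72 copy changed. The sources used here give neither strain, nor treatment, nor how the alleles were made, nor how many animals stand behind each group or whether any were pooled. The p-values therefore rest on array-to-array spread that may be only technical, and the small number of arrays limits the precision.

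Ribosome production starts in the nucleolus, where RNA polymerase I copies the rRNA genes with the help of the factors UBF, TIF-IA and the SL1 complex. Small nucleolar ribonucleoproteins then guide the methylation and pseudouridylation of the transcript, and the processome and the large subunit assembly factors cut, fold and export the particles. Myc, paired with its partner Max, binds the DNA motif CACGTG (an E-box) and is known to raise the transcription of many of these genes in B-cell precursors, and proteins of the Mxd family pair with Max in its place and repress.

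The E-box is shown here because it is the sequence that links such genes to Myc. RefSeq promoter windows of build GRCm38.p6, from 250 bases before to 50 bases after each start, were found for 41 of the 47 genes. The letters CACGTG, which read the same on both strands, occurred in 9 of those 41 genes (22%), against 2187 of 27025 genes in the whole table (8.09%). The whole table was not matched to the members in expression or base composition, and the difference was not tested. The motif was searched as these letters alone, with no neighbouring base fixed. Each match is given 5′ to 3′ along the gene's strand with the motif in capitals, and its coordinates cover the printed bases.
Nop2 (chr6:125131813-125131838, + strand): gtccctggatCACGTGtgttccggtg
Nmd3 (chr3:69721931-69721956, + strand): ccccttgctaCACGTGtattctttga
Rrn3, distal match (chr16:13780474-13780499, + strand): gcgccaaggtCACGTGcacacgcctc
Rrn3, proximal match (chr16:13780641-13780666, + strand): acgctctgctCACGTGggccgcgtcc
Pes1 (chr11:3963967-3963992, + strand): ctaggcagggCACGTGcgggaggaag
Wdr43 (chr17:71616222-71616247, + strand): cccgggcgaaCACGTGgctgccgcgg
Tsr1 (chr11:74898094-74898119, + strand): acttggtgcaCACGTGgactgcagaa
Ltv1 (chr10:13193094-13193119, - strand): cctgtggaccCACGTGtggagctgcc
Utp20 (chr10:88826765-88826787, - strand): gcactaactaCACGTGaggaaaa
Mybbp1a (chr11:72441357-72441376, + strand): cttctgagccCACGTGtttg

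In Nop2, Nmd3 and Rrn3 the motif lay before the start, with its first base 60 bases upstream in Nop2, 114 in Nmd3, and 215 and 48 in Rrn3. The other 6 genes held it after the start, where its first base was base 3 in Pes1, 18 in Wdr43, 25 in Tsr1, 29 in Ltv1, 38 in Utp20 and 41 in Mybbp1a, counting the first transcribed base as 1. The whole window before the start of Nop2 (chr6:125131633-125131882, + strand), which encodes a methyltransferase of the large subunit rRNA, shows the match in its surroundings.
Nop2 window: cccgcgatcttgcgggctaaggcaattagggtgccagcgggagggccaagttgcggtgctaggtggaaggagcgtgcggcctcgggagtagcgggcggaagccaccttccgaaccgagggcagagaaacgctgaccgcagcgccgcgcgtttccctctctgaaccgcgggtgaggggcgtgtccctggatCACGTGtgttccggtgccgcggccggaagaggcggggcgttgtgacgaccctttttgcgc

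Facts of the whole array set that touch these genes come first. The arrays of each genotype were split into closest pairs, a split that any arrays allow, and the pairs stood well apart only in WT. The SD of the log2 difference over all clusters was 0.109 between WT replicates 1 and 3 and 0.117 between 2 and 4, while the other WT pairs gave 0.27 to 0.28. For Pax5+/- the same numbers paired (0.177 for 1 and 3, 0.122 for 2 and 4, 0.194 to 0.281 otherwise). The double-heterozygous arrays differed by 0.117 to 0.183 without clear pairs, with 0.117 for 1 and 2, 0.125 for 3 and 4 and 0.128 for 2 and 3. The labels do not say whether such pairs are repeat arrays of 1 sample. As a check of the labels, Pax5 averaged 11.21, 10.97 and 11.57 (log2 signal) in the double-heterozygous, Pax5+/- and WT groups, and Cd72 averaged 7.51, 10.19 and 8.90. Xist was high and Uty low in all 4 double-heterozygous arrays, and the reverse held in all other arrays, so sex and the Cd72 genotype cannot be told apart. The mean level of 12 pro-B markers was 11.28 to 11.49 in double-heterozygous, 11.53 to 11.7 in Pax5+/- and 10.95 to 11.88 in WT arrays.

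Ribosome biogenesis genes varied widely between arrays of the same genotype in WT and Pax5+/- cells, but little in double-heterozygous cells. The median level over the 47 genes was 9.74, 9.75, 9.79 and 9.83 (log2 signal) in double-heterozygous replicates 1 to 4. It was 9.79, 9.38, 9.57 and 9.27 in Pax5+/- replicates 1 to 4, and 9.36, 10.06, 9.38 and 10.1 in WT replicates 1 to 4. The double-heterozygous arrays thus lay close together, Pax5+/- replicates 2 and 4 lay low, and the WT arrays spanned the whole range, with replicates 2 and 4 at its top and replicates 1 and 3 near its bottom. The SD between the 4 arrays of a group, taken per gene, had a median of 0.07 in double-heterozygous cells, 0.21 in Pax5+/- cells and 0.35 in WT cells over the 47 genes, against 0.077, 0.094 and 0.088 over all clusters tested. In bulk RNA, fewer cells of a type and less RNA per cell cannot be told apart.

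**Figure D1:**
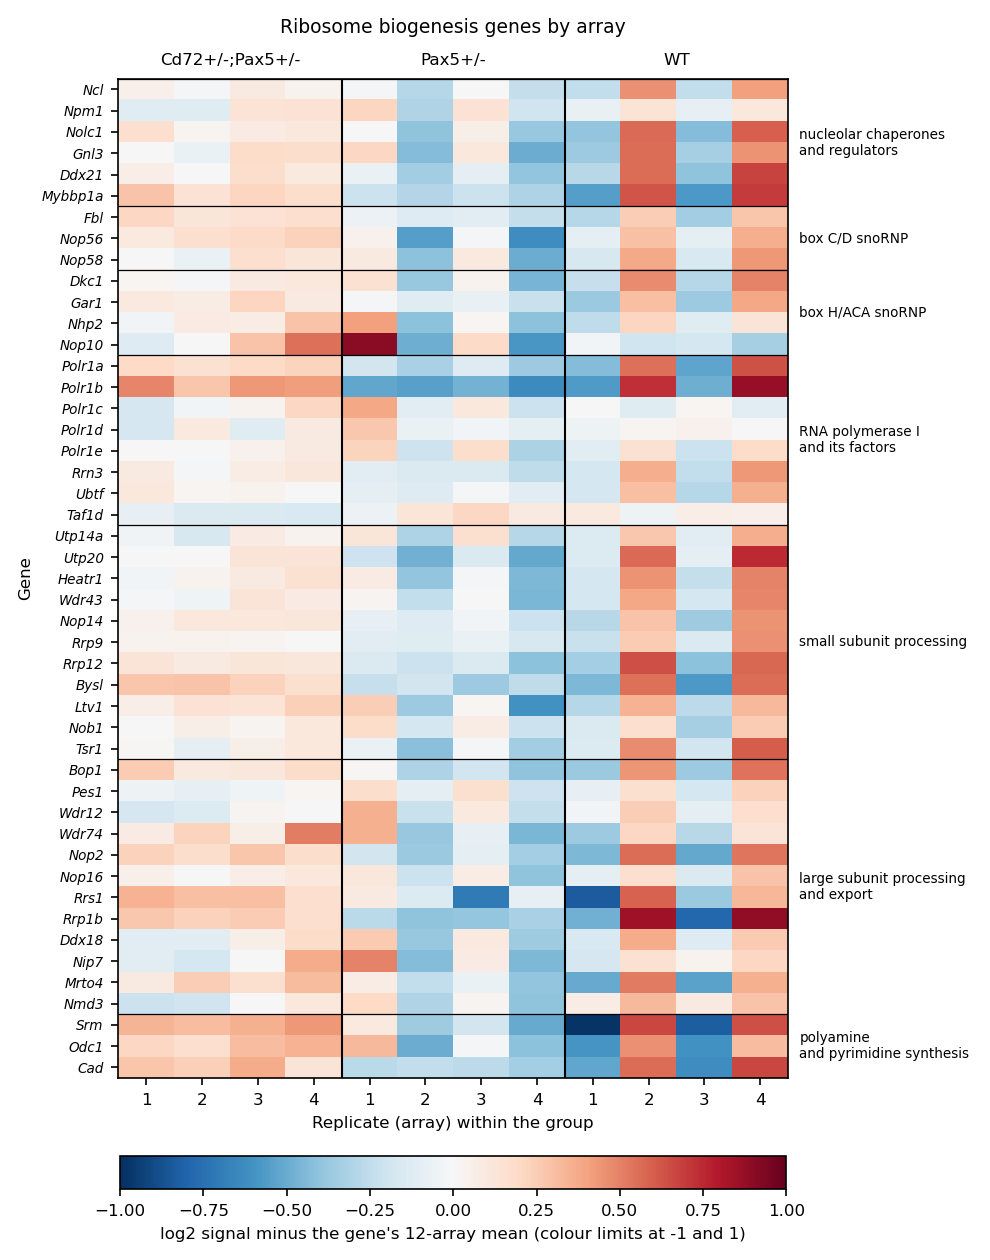
Log2 signal of each of the 47 genes (rows, ordered by role) in each array (columns, grouped by genotype), as the difference from the gene's mean over 12 arrays, with colour limits at -1 and 1. WT replicates 2 and 4 are red and WT replicates 1 and 3 blue in most rows, while the Cd72+/-;Pax5+/- columns are pale and alike.

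Gene by gene the division was the same. In 43 of 47 genes (91.5%) WT replicates 2 and 4 both lay above replicates 1 and 3, against 24.4% of all clusters tested, and in 32 of the 47 these were the 2 highest of all 12 arrays. The exceptions were Polr1d, with mixed order, and Nop10, Polr1c and Taf1d, with replicates 2 and 4 below. In Pax5+/- cells replicates 2 and 4 both lay below replicates 1 and 3 in 41 of 47 genes (87.2%), against 23.7% of all clusters. Replicate numbers only name arrays, so these arrays have no link to the WT arrays of the same number. These counts describe the arrays and were not tested, since the arrays to compare were seen in the same values. WT replicate 4 held the highest value of 26 genes and WT replicate 2 of 11, and Pax5+/- replicate 4 held the lowest value of 21 and WT replicate 3 of 14.

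**Figure D2:**
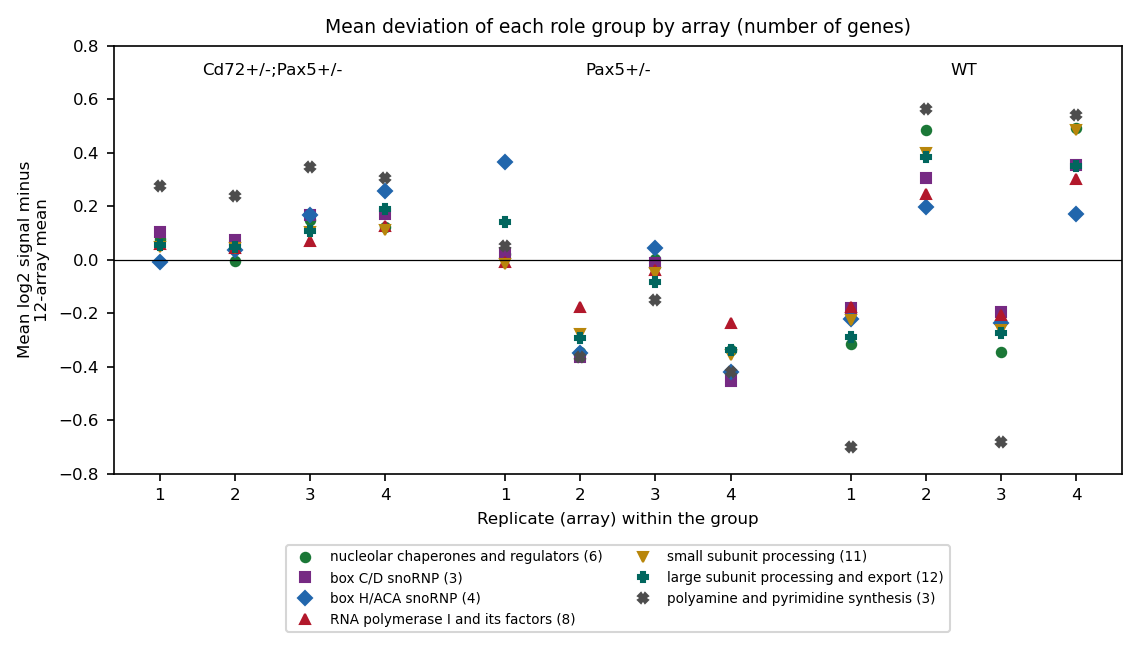
Mean log2 signal of each role group in each array, as the difference from its mean over 12 arrays. All 7 role groups lie above 0 in WT replicates 2 and 4 and below 0 in WT replicates 1 and 3, with the polyamine and pyrimidine enzymes the farthest out at -0.70 and 0.56.

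With this spread, hardly any of the 47 genes passed the test between genotypes (limma across 23410 clusters, Benjamini-Hochberg adjusted p under 0.05). In Pax5+/- against WT cells, 0 genes were called higher and 0 lower, while 4.28% of all clusters were called higher and 3.2% lower (7.47% in either direction). At an unadjusted p under 0.05 limma gave 5 lower genes (Utp20, Nop56, Nmd3, Polr1b and Tsr1) and 0 higher, against 8.62% and 9.42% of all clusters. The change was negative in 43 genes and positive in 4, with a median of -0.20 on the log2 scale against -0.005 over all clusters. Utp20 was the only gene whose 4 Pax5+/- arrays all lay below the 4 WT arrays, as 4.87% of all clusters did, and 0 genes lay wholly above WT (5.84% of all clusters).

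Double-heterozygous against WT cells also gave 0 higher and 0 lower genes, against 4.12% and 3.66% of all clusters (7.78% in either direction). At an unadjusted p under 0.05 limma gave 1 lower gene, Taf1d, and 0 higher, against 9.68% and 10% of all clusters. The changes were balanced, with 25 above 0, 21 below 0 and a median of 0.01 (all clusters, 0.0025), and they ran from -0.27 for Nmd3 to 0.48 for Srm. Taf1d alone had groups that did not overlap, with all double-heterozygous arrays lower, as 7.23% of all clusters did, and 0 genes lay wholly above WT (7.61%).

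The 3 comparisons share arrays, so their values are set side by side and not taken as independent. Between the mutants, Polr1b rose and the cluster that stands for Taf1d fell in double-heterozygous against Pax5+/- cells, so that 1 of 47 genes (2.13%) was called higher and 1 (2.13%) lower, against 4.44% and 5.35% of all clusters (9.79% in either direction). The other 45 did not pass, although the change was above 0 in 42 of the 47, with a median of 0.23 (all clusters, 0.005). In 21 genes (44.7%) every double-heterozygous array lay above every Pax5+/- array, against 9.59% of all clusters, and in 1 (Taf1d) every array lay below (8.91%). At an unadjusted p under 0.05 limma gave 6 higher genes (Fbl, Nop56, Polr1b, Utp20, Bysl and Cad) and 1 lower, against 11.1% of all clusters in each direction. The WT arrays entered the shared estimate of error, and with only the mutant groups in the fit 18 genes were called higher, against 7.16% of all clusters, and Taf1d lower. When the closest pairs of arrays were averaged, no gene was called in either direction (Polr1b, adjusted p = 0.506), and with the pairs as a random block none was called either (adjusted p = 0.061 for Polr1b and 0.185 for Taf1d).

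**Figure D3:**
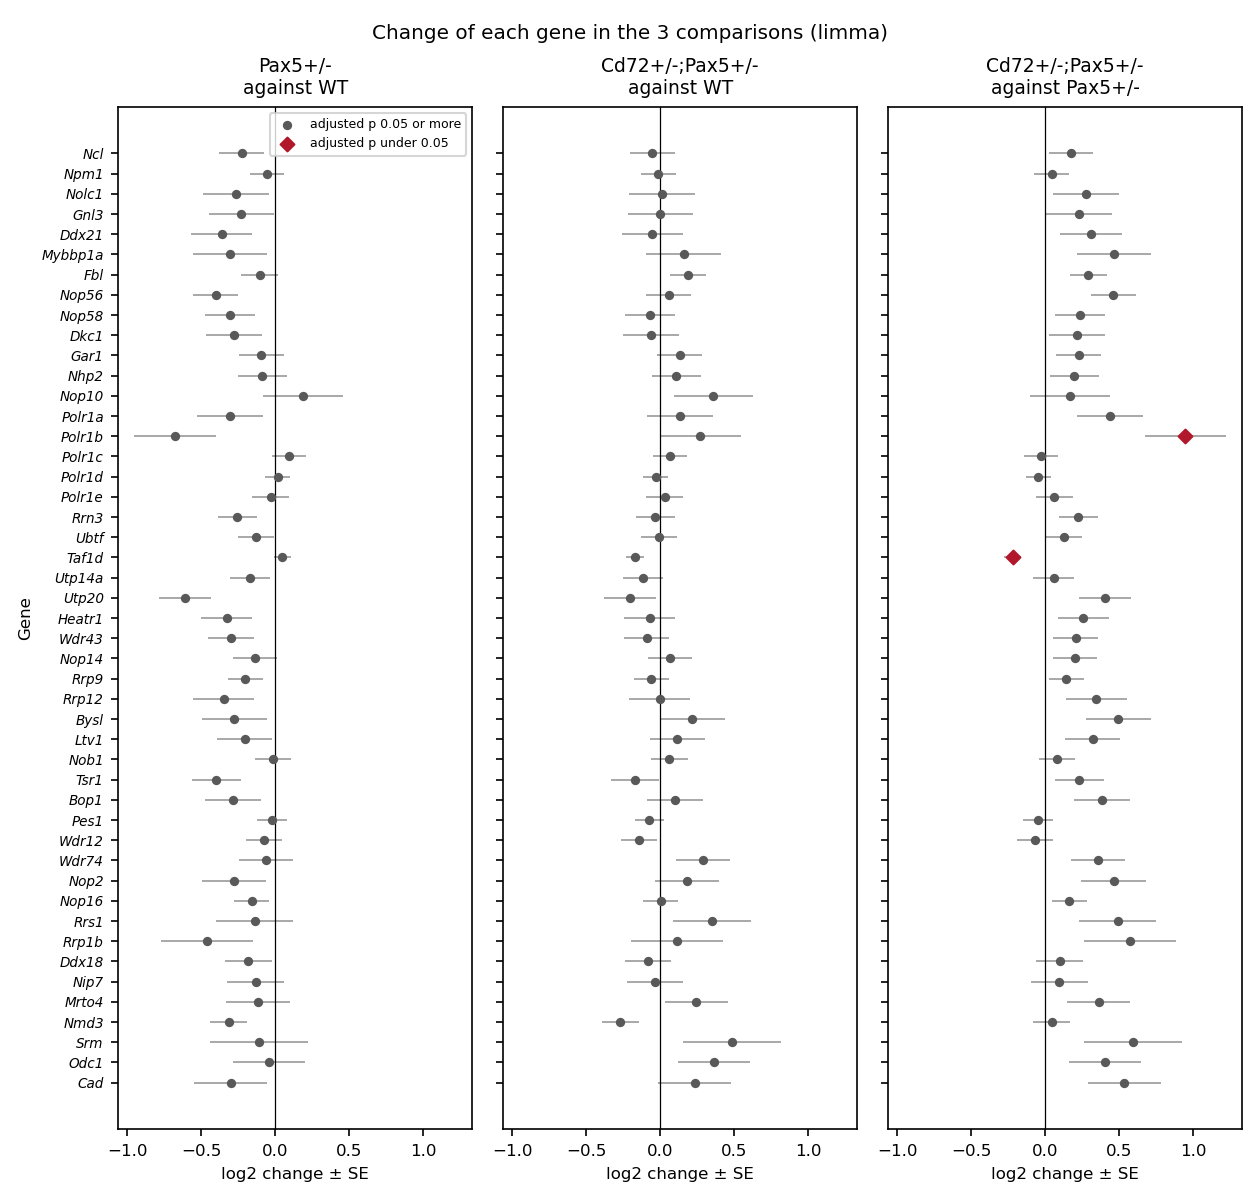
Log2 change of each of the 47 genes with its standard error (limma, 12 arrays) in the 3 comparisons. Points in the left panel lie mostly left of 0, those in the middle panel on both sides, and those in the right panel mostly right of 0, where Polr1b (0.95) and Taf1d (-0.22) are the 2 red diamonds with an adjusted p under 0.05.

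RNA polymerase I and its factors held both called genes. Polr1b encodes the second largest subunit of the enzyme. Its log2 signal was 9.72, 9.51, 9.66 and 9.65 in double-heterozygous arrays, 8.71, 8.69, 8.76 and 8.59 in Pax5+/- arrays, and 8.66, 9.96, 8.74 and 10.1 in WT arrays. The mutant groups were thus tight and far apart, while the WT arrays covered both, 2 of them at the Pax5+/- level and 2 above every mutant array. Double-heterozygous over Pax5+/- cells the change was 0.95 ± 0.27 (log2, SE), or 1.93-fold, with an adjusted p of 0.0483 (limma). It was 0.27 ± 0.27 against WT, and -0.68 ± 0.27 for Pax5+/- against WT (adjusted p = 0.69 and 0.199). The call was narrow: the change stayed between 0.92 and 0.99 without any 1 mutant array, but each such omission, of any of the 4 double-heterozygous or 4 Pax5+/- arrays, brought the adjusted p to between 0.0759 and 0.113.

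Taf1d encodes a subunit of the SL1 complex, and the cluster that stands for it moved the other way and by less. That cluster, whose annotation lists none of the gene's RefSeq transcripts, read 13.39, 13.33, 13.33 and 13.32 in double-heterozygous arrays, 13.41, 13.59, 13.68 and 13.56 in Pax5+/- arrays, and 13.57, 13.42, 13.54 and 13.52 in WT arrays. Every double-heterozygous value lay below every other, and the change against Pax5+/- cells was -0.22 ± 0.06 (adjusted p = 0.0316). Taf1d had more clusters than any other member, and they disagreed. The cluster annotated with its RefSeq transcripts changed by 0.23 (adjusted p = 0.46), another fell by 0.53 (adjusted p = 4.77e-05), and the mean of all its clusters changed by 0.12 (adjusted p = 0.716). Several of its clusters held identical values in every array, with a change of 0.35, so that mean counts the same reading more than once. The lower call for the gene thus rests on which cluster represents it. Its call against Pax5+/- cells was also lost, at adjusted p = 0.0666 to 0.0934, without double-heterozygous replicate 2, 3 or 4 or Pax5+/- replicate 2, 3 or 4.

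The remaining polymerase I genes did not pass. Polr1a, the largest subunit, read 9.67, 9.62, 9.67 and 9.69 in double-heterozygous arrays, 9.29, 9.15, 9.34 and 9.11 in Pax5+/- arrays, and 9.04, 10.02, 8.94 and 10.11 in WT arrays. Like Polr1b it placed the WT arrays on both sides of the mutants, and its change between the mutants was 0.44 ± 0.22 (adjusted p = 0.281). Rrn3, which encodes the initiation factor TIF-IA, and Ubtf, which encodes UBF, also had double-heterozygous arrays all above the Pax5+/- arrays, with changes of 0.23 and 0.13 (adjusted p = 0.364 and 0.627). Polr1c and Polr1d, the subunits shared with RNA polymerase III, behaved unlike the others: their 4 WT arrays spanned only 9.66 to 9.80 and 9.13 to 9.22, and their changes between the mutants were -0.03 and -0.05. Polr1e, a subunit of the enzyme's own, lay between these patterns, with WT arrays from 8.13 to 8.53 and a change of 0.06 between the mutants.

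Among the nucleolar chaperones and regulators, none of 6 passed in any comparison. Ncl, which encodes nucleolin, read 12.37, 12.30, 12.41 and 12.35 in double-heterozygous arrays, 12.30, 12.03, 12.32 and 12.08 in Pax5+/- arrays, and 12.07, 12.77, 12.07 and 12.73 in WT arrays. Its WT arrays lay in the 2 levels seen across the set, and the mutant arrays lay between them or near the lower one. Mybbp1a, a Myb-binding protein of the nucleolus, had the widest WT range of the 6, from 9.99 to 11.26, and the largest difference between the mutants, 0.47 ± 0.25 (adjusted p = 0.315). All double-heterozygous arrays of Mybbp1a (10.71 to 10.85) and of Ddx21 (10.55 to 10.72), an RNA helicase of the nucleolus, lay above the Pax5+/- arrays (10.25 to 10.35 and 10.15 to 10.48). Nolc1, a nucleolar phosphoprotein, and Gnl3 (nucleostemin) overlapped between the mutants, with changes of 0.28 and 0.23. Npm1, which encodes nucleophosmin, changed least, by 0.05 between the mutants and by -0.06 in Pax5+/- against WT cells, and its WT arrays spanned 11.77 to 11.99.

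The box C/D particle, which methylates rRNA, was covered by Fbl, the methyltransferase fibrillarin, and by its core proteins Nop56 and Nop58. None of the 3 passed. Nop56 read 11.58, 11.65, 11.67 and 11.71 in double-heterozygous arrays, 11.52, 10.93, 11.46 and 10.86 in Pax5+/- arrays, and 11.38, 11.77, 11.39 and 11.84 in WT arrays. Here 2 Pax5+/- arrays stood apart from the other 10, and the double-heterozygous arrays lay above all 4 Pax5+/- arrays, by 0.46 ± 0.15 on average (adjusted p = 0.0834). Without Pax5+/- replicate 1 the call was made (0.57, adjusted p = 0.0318). Against WT, Nop56 changed by -0.40 ± 0.15 in Pax5+/- cells (adjusted p = 0.165), the lowest value of the 3, and Fbl by -0.11. Fbl did not overlap between the mutants either, at 10.31 to 10.39 in double-heterozygous and 9.95 to 10.13 in Pax5+/- arrays (0.29 ± 0.12, adjusted p = 0.186), and its second cluster changed by 0.53 (adjusted p = 0.0694). Nop58 changed by 0.24 between the mutants and overlapped.

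The box H/ACA particle, which makes pseudouridine, was covered by its synthase Dkc1 (dyskerin) and its core proteins Gar1, Nhp2 and Nop10, of which none passed. Gar1 read 9.60, 9.58, 9.72 and 9.59 in double-heterozygous arrays, 9.49, 9.38, 9.43 and 9.28 in Pax5+/- arrays, and 9.13, 9.80, 9.14 and 9.89 in WT arrays. It was the member of the particle in which the mutants did not overlap, with a change of 0.23 ± 0.15 (adjusted p = 0.44). Nop10 had a pattern of its own: 10.14, 10.26, 10.55 and 10.82 in double-heterozygous arrays, 11.17, 9.78, 10.46 and 9.68 in Pax5+/- arrays, and 10.24, 10.07, 10.09 and 9.93 in WT arrays. Its spread was widest in Pax5+/- cells (SD 0.691) and small in WT cells (SD 0.127), the reverse of most members, and its changes against WT were the highest of the 4, at 0.36 ± 0.27 in double-heterozygous and 0.19 ± 0.27 in Pax5+/- cells. Dkc1, on the X chromosome, had the lowest, at -0.06 and -0.28. Nhp2 changed by 0.20 between the mutants, with Pax5+/- arrays from 9.14 to 9.96 that enclosed all double-heterozygous arrays.

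Small subunit processing was represented by 11 genes, and none passed in any comparison. Utp20, a large scaffold of the processome, came closest: it read 10.05, 10.05, 10.17 and 10.17 in double-heterozygous arrays, 9.84, 9.56, 9.90 and 9.53 in Pax5+/- arrays, and 9.91, 10.61, 9.95 and 10.79 in WT arrays. The Pax5+/- arrays were the 4 lowest of the 12, the highest of them only just below WT replicate 1. The change in Pax5+/- against WT cells was -0.61 ± 0.18, with an adjusted p of 0.0584, and it passed when dim clusters were left out (0.0465) and without WT replicate 1 (0.017) or WT replicate 3 (0.0216). Double-heterozygous against WT cells it was -0.21 ± 0.18, the lowest of the 11.

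Bysl (bystin), needed for maturation of the small subunit, was the highest of the 11 between the mutants. It read 8.43, 8.44, 8.38 and 8.31 in double-heterozygous arrays, 7.92, 7.97, 7.79 and 7.90 in Pax5+/- arrays, and 7.70, 8.70, 7.58 and 8.71 in WT arrays. The mutants were 0.50 ± 0.22 apart (adjusted p = 0.209), with both inside the WT range. Rrp12, an export and processing factor, showed the contrast in spread most plainly, with 8.97 to 9.01 in double-heterozygous arrays, 8.47 to 8.73 in Pax5+/- arrays and 8.47 to 9.52 in WT arrays. Nop14 and Rrp9, processome proteins, joined Utp20, Bysl and Rrp12 as the 5 genes of this role whose mutants did not overlap (9.59% of all clusters had double-heterozygous arrays all higher), with changes of 0.20 and 0.14.

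The other 6 overlapped between the mutants. Heatr1, a processome protein, changed by 0.26, Wdr43, a processome protein, by 0.21, Tsr1, a late assembly factor, by 0.23 and Ltv1, an export adaptor, by 0.32. Nob1, the endonuclease that finishes the small subunit rRNA, and Utp14a, an X-linked processome protein, changed least, by 0.08 and 0.06. Nob1 also had the smallest change in Pax5+/- against WT cells (-0.02), where all 11 genes were negative. Tsr1 was next to Utp20 there, with -0.40 ± 0.17 (adjusted p = 0.21).

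Large subunit processing and export was represented by 12 genes with no call in any comparison. Rrp1b, a nucleolar protein of rRNA processing, had the largest change between the mutants, 0.58 ± 0.31 (adjusted p = 0.312), and the lowest in Pax5+/- against WT cells, -0.46 ± 0.31. Its values were 9.79, 9.75, 9.78 and 9.69 in double-heterozygous arrays, 9.25, 9.12, 9.14 and 9.20 in Pax5+/- arrays, and 9.04, 10.37, 8.74 and 10.41 in WT arrays. The mutant arrays lay at 2 narrow levels, both inside the wide WT range. Nop2, whose promoter window is printed above, had the same form, with 9.69 to 9.79 in double-heterozygous arrays, 9.14 to 9.42 in Pax5+/- arrays and 9.00 to 10.07 in WT arrays (0.46 ± 0.22 between the mutants, adjusted p = 0.234).

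Bop1, which works with Pes1 and Wdr12 in the PeBoW complex, did not overlap between the mutants either (9.57 to 9.72 in double-heterozygous and 9.07 to 9.48 in Pax5+/- arrays), but its partners did. Pes1 changed by -0.05 and Wdr12 by -0.07, the lowest of the role, so the changes of the 3 proteins of 1 complex, none of which passed, did not share a sign. Rrs1, which assembles the 5S particle, changed by 0.49 ± 0.26 between the mutants and by 0.35 ± 0.26 against WT, the highest of the role there (adjusted p = 0.307 and 0.544). Mrto4, which holds the place of the stalk proteins, changed by 0.36 and completed the 5 genes of the role without overlap, where 9.59% of all clusters were likewise higher. Its mutants were only just apart (lowest double-heterozygous array 8.65, highest Pax5+/- array 8.63). In its second cluster, of nearly the same mean level, they overlapped (8.64 and 8.68).

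The rest overlapped. Wdr74, a factor of early assembly, changed by 0.36, Nop16, a nucleolar assembly protein, by 0.17, Ddx18, a helicase, by 0.10 and Nip7, a binding partner of pre-rRNA, by 0.10. Nmd3, the export adaptor of the large subunit, was lowest in double-heterozygous against WT cells. It read 9.09, 9.10, 9.31 and 9.41 in double-heterozygous arrays, 9.50, 9.00, 9.33 and 8.90 in Pax5+/- arrays, and 9.38, 9.63, 9.39 and 9.59 in WT arrays. The changes against WT were -0.27 ± 0.13 (adjusted p = 0.262) in double-heterozygous and -0.32 ± 0.13 (adjusted p = 0.194) in Pax5+/- cells. Without Pax5+/- replicate 1 the change in Pax5+/- cells passed (-0.42, adjusted p = 0.0461).

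Polyamine and pyrimidine enzymes, which supply growth rather than the ribosome itself, had the widest differences between WT arrays. Srm, spermidine synthase, read 9.85, 9.82, 9.87 and 9.95 in double-heterozygous arrays, 9.61, 9.16, 9.33 and 9.01 in Pax5+/- arrays, and 8.53, 10.18, 8.69 and 10.16 in WT arrays. The WT arrays lay at both extremes, with an SD of 0.903, the largest of the 47 genes, and the mutants did not overlap. Srm changed by 0.48 ± 0.33 in double-heterozygous against WT cells, the highest value of the 47 genes there (adjusted p = 0.496), and by 0.60 ± 0.33 between the mutants (adjusted p = 0.331). Cad, the enzyme that starts pyrimidine synthesis, read 9.83 to 10.07 in double-heterozygous arrays, 9.36 to 9.45 in Pax5+/- arrays and 9.08 to 10.37 in WT arrays, and changed by 0.54 ± 0.25 between the mutants (adjusted p = 0.224). Odc1, which encodes ornithine decarboxylase, the entry enzyme of polyamine synthesis and a textbook Myc target, changed by 0.41 ± 0.24 and overlapped, because Pax5+/- replicate 1 (10.25) lay among the double-heterozygous arrays (10.09 to 10.27).

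Which WT arrays were used set the direction against WT. With WT replicates 1 and 3 left out, the median change of the 47 genes was -0.31 in double-heterozygous and -0.56 in Pax5+/- against WT cells. With WT replicates 2 and 4 left out it was 0.29 and 0.11. The counts turned with it: 17 genes lower and 0 higher in double-heterozygous cells in the first case (5.22% of all clusters lower), and 22 higher and 0 lower in the second (7.75% higher). For Pax5+/- cells they were 29 lower (8.71%) and 5 higher (3.77%), those 5 being Mybbp1a, Gar1, Bysl, Srm and Cad. These settings were chosen after seeing the data and may take repeat arrays as replicates, so they describe the dependence and test nothing. The comparison between the mutants depended in turn on the Pax5+/- arrays, with a median change of 0.46 without replicates 1 and 3 and 0.07 without replicates 2 and 4.

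**Figure D4:**
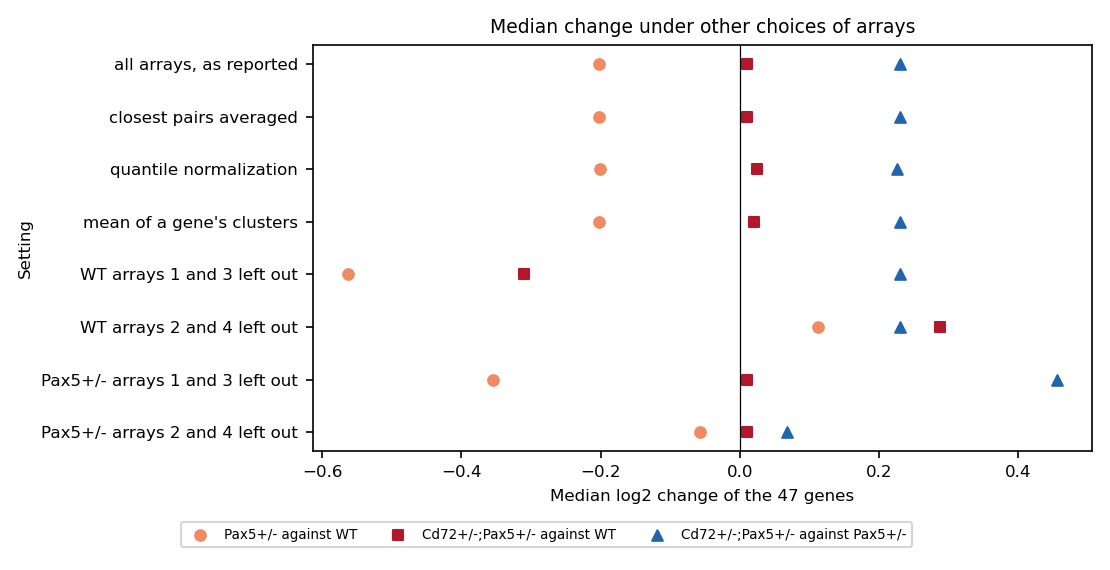
Median log2 change of the 47 genes in the 3 comparisons (symbols) under the main setting and 7 others (rows). Both comparisons with WT lie below 0 without WT replicates 1 and 3 and above 0 without WT replicates 2 and 4, while the change between the mutants stays above 0, from 0.07 to 0.46. Leaving out WT arrays or averaging pairs cannot move the change between the mutants.

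Other genes of the pathway came from lists written from general knowledge. Of 85 further ribosome biogenesis factors measured (89 listed), 1 rose and 2 fell in Pax5+/- against WT cells, with a median of -0.16 (4.28% of all clusters rose and 3.2% fell). Taf1b, another SL1 subunit, rose by 0.83 (adjusted p = 0.000252), and Urb2 and Dhx37, factors of ribosome assembly, fell by 0.41 (adjusted p = 0.0163) and 0.53 (adjusted p = 0.0464). Double-heterozygous against WT cells 1 rose (Nop53, 0.46, adjusted p = 0.0096) and 1 fell (Riok1, -0.40, adjusted p = 0.022), and the median was -0.025 (all clusters, 4.12% and 3.66%). Double-heterozygous against Pax5+/- cells 1 rose and 2 fell, against 4.44% and 5.35% of all clusters: Dhx37 by 0.57 (adjusted p = 0.0272) and Taf1b by -0.87 (adjusted p = 0.000135), beside Riok1, a kinase of small subunit maturation (-0.38, adjusted p = 0.0249). The median was 0.13, and in 25 genes (29.4%) every double-heterozygous array lay above every Pax5+/- array, against 9.59% of all clusters. Of 11 genes of the RNA exosome, which trims rRNA ends, limma called 0 in any comparison. At an unadjusted p under 0.05 it gave 4, all higher, between the mutants (11.1% of all clusters higher). It gave 1, lower, in Pax5+/- against WT cells (8.62% of all clusters lower).

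Cytosolic ribosomal proteins, the building blocks of the finished ribosome, did not share the division of the WT arrays. Their mean level over 53 of 77 genes was 11.89, 11.99, 11.97 and 12.17 in double-heterozygous arrays, 12.22, 11.84, 11.86 and 11.80 in Pax5+/- arrays, and 11.84, 11.78, 11.94 and 11.60 in WT arrays. WT replicates 2 and 4 lay lowest here, where the biogenesis factors were highest. In double-heterozygous against WT cells 6 of the 53 (11.3%) rose and 0 fell (median 0.23), against 4.12% and 3.66% of all clusters, among them Rplp2 by 0.50 (adjusted p = 0.00677), Rps15 by 0.36 (adjusted p = 0.0176), Rpl28 by 0.43 (adjusted p = 0.0193) and Rps10 by 0.34 (adjusted p = 0.0201). Between the mutants Rplp2 and Rps15a (3.77% of the list, against 4.44% of all clusters) rose, by 0.35 and 0.30 (adjusted p = 0.0438 and 0.0424). In Pax5+/- against WT cells limma called 0 of 53, with 6 higher and 2 lower at an unadjusted p under 0.05 (9.42% and 8.62% of all clusters). Ribosomal protein genes have many near-identical pseudogenes, and 16 of the 77 had only clusters shared with other symbols.

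Of 47 Myc targets outside the ribosome that were measured (51 listed), 6 rose (12.8%) and 0 fell in double-heterozygous against Pax5+/- cells, against 4.44% and 5.35% of all clusters, with a median of 0.28. The 4 with the smallest adjusted p were Mthfd2, a mitochondrial folate enzyme (0.98, adjusted p = 0.00433), Slc16a1, a lactate carrier (0.37, adjusted p = 0.0123), Slc3a2, the heavy chain of amino acid carriers (0.81, adjusted p = 0.0196), and Ran, the nuclear transport GTPase (0.40, adjusted p = 0.0252). In Pax5+/- against WT cells 3 fell and 0 rose, against 3.2% and 4.28% of all clusters: Slc16a1 by 0.59 (adjusted p = 0.000505), Mthfd2 by 0.75 (adjusted p = 0.0271) and Tfrc, the transferrin receptor, by 0.76 (adjusted p = 0.0296). Tfrc was also the 1 called gene in double-heterozygous against WT cells, at -0.99 (adjusted p = 0.00612, with 3.66% of all clusters lower). Slc16a1 did not divide the WT arrays (10.70 to 10.79), unlike most of the 47 biogenesis genes.

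Myc itself passed in no comparison. Its log2 signal was 11.27, 11.25, 11.24 and 11.21 in double-heterozygous arrays, 10.92, 11.01, 10.81 and 11.03 in Pax5+/- arrays, and 10.1, 11.86, 10.12 and 11.83 in WT arrays. WT replicates 2 and 4 thus lay far above WT replicates 1 and 3, the same arrays as for the biogenesis genes, whereas Pax5+/- replicates 2 and 4 were not below replicates 1 and 3. The changes of Myc were 0.27 ± 0.35 and -0.04 ± 0.35 in double-heterozygous and Pax5+/- against WT cells and 0.30 ± 0.35 between the mutants (adjusted p = 0.783, 0.979 and 0.701). Mycn, its close relative, divided the WT arrays alike (7.15, 8.21, 7.32 and 8.44), as did Max (9.62, 10.19, 9.60 and 10.15), and neither passed in any comparison. For all 3 genes every double-heterozygous array lay above every Pax5+/- array. They were the 3 of 14 Myc network genes (21.4%) with this order, against 9.59% of all clusters. Another 2 of the 14 (14.3%) lay wholly below, against 8.91%.

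Mxd4, a repressor that pairs with Max, ran the opposite way. It read 9.40, 9.49, 9.39 and 9.45 in double-heterozygous arrays, 10.59, 11.09, 10.62 and 11.0 in Pax5+/- arrays, and 10.39, 8.82, 10.27 and 9.01 in WT arrays. The arrays with high biogenesis genes were those with low Mxd4 in WT and Pax5+/- cells. Mxd4 fell by 1.39 ± 0.30 in double-heterozygous against Pax5+/- cells (adjusted p = 0.0105) and rose by 1.20 ± 0.30 in Pax5+/- against WT cells (adjusted p = 0.0292). Of the 14 genes of the Myc network, 2 rose and 1 fell in Pax5+/- against WT cells, against 4.28% and 3.2% of all clusters. Besides Mxd4, Mxi1, a further repressor, rose by 0.22 in Pax5+/- against WT cells (adjusted p = 0.0324). Mga, a Max partner, fell by 0.35 in double-heterozygous (adjusted p = 0.000968) and by 0.21 in Pax5+/- against WT cells (adjusted p = 0.0282).

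**Figure D5:**
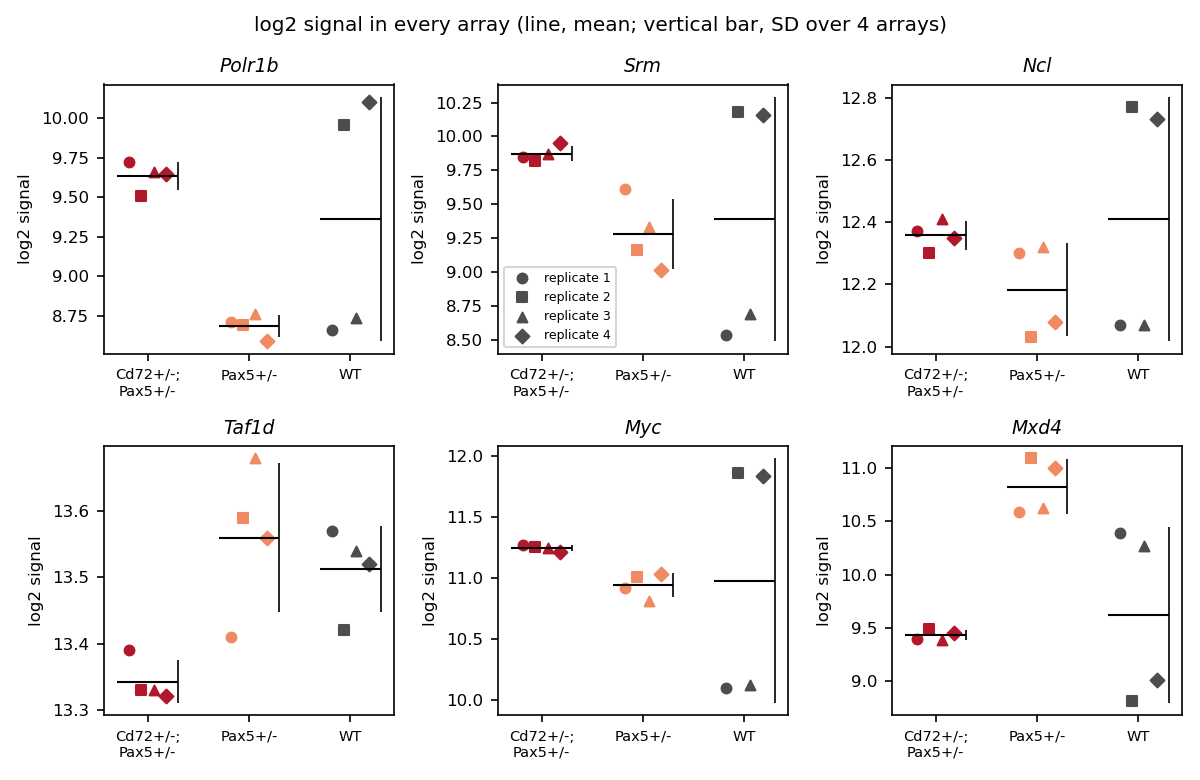
Log2 signal of 6 genes in each array by genotype, with the replicate as the symbol, a horizontal line at the mean and a vertical bar of 1 SD on each side over 4 arrays. In WT, replicates 2 and 4 are high for Polr1b, Srm, Ncl and Myc and low for Mxd4. The cluster that stands for Taf1d shows no such division, unlike the cluster annotated with the gene's RefSeq transcripts (not drawn).

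Among 6 further polyamine genes measured, 2 rose and 1 fell in Pax5+/- against WT cells (4.28% and 3.2% of all clusters), and 1 fell between the mutants (5.35%). In double-heterozygous against WT cells limma called 0, with 2 lower at an unadjusted p under 0.05 (9.68% of all clusters). Sat1, which acetylates and so disposes of polyamines, rose by 0.64 in Pax5+/- against WT cells (adjusted p = 0.00814) and fell by 0.95 in double-heterozygous against Pax5+/- cells (adjusted p = 0.000352). Sat1 lies on the X chromosome. In Pax5+/- against WT cells Oaz2, an antizyme that blocks ornithine decarboxylase, rose by 0.27 (adjusted p = 0.0289) and Azin1, the inhibitor of antizyme, fell by 0.62 (adjusted p = 0.00372). Of 17 proliferation genes, 3 fell and 0 rose in Pax5+/- against WT cells (3.2% and 4.28% of all clusters), Rrm2 by 0.91 (adjusted p = 1.49e-05), Top2a by 0.28 (adjusted p = 0.0124) and Mcm4 by 0.22 (adjusted p = 0.0199). Mcm4 fell in double-heterozygous against WT cells (-0.20, adjusted p = 0.0336), and Rrm2 and Aurkb (11.8%, against 4.44% of all clusters) rose between the mutants, by 0.81 (adjusted p = 3.18e-05) and 0.19 (adjusted p = 0.0238). Unlike the biogenesis genes, the proliferation list was no higher in WT replicates 2 and 4 (mean deviations of 0.02 and 0.05 from the 12-array mean) than in replicates 1 and 3 (0.14 and 0.12).

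Markers of cell types moved with the same arrays, and their part in the results was not tested. The mean level of 12 pro-B markers was 11.84, 11.01, 11.88 and 10.95 in WT replicates 1 to 4, so it was low where the biogenesis genes were high. Il7r read 12.47, 11.12, 12.44 and 11.07 in those arrays, Rag2 10.25, 8.74, 10.23 and 8.79, and Kit 11.15, 10.07, 11.15 and 10.1 (genes chosen after their values were seen). Of the 12 pro-B markers, 9 had a change above 0 and 3 below 0 in double-heterozygous against WT cells, with a median of 0.24. Of these Ebf1 rose by 0.25 (adjusted p = 0.0326) and Dntt fell by 2.34 (adjusted p = 0.00515). Between the mutants 4 pro-B markers had a change above 0 and 8 below 0. There limma called 1 higher and 1 lower (8.33% each, against 4.44% and 5.35% of all clusters), the lower being Dntt (-2.12, adjusted p = 0.00809). In Pax5+/- against WT cells it called 1 higher and 1 lower (8.33% each, against 4.28% and 3.2%), the lower being Cd79a (-0.33, adjusted p = 0.00539). The mean level of 12 stromal markers was 6.38 to 6.51 in double-heterozygous arrays, 7.41, 6.57, 7.49 and 6.61 in Pax5+/- arrays and 7.39, 6.93, 7.4 and 6.91 in WT arrays, so it was high in replicates 1 and 3 of the Pax5+/- and WT groups, where the biogenesis genes were high in Pax5+/- and low in WT cells. In double-heterozygous against WT cells limma called 2 of the 12 lower (16.7%) and 0 higher, against 3.66% and 4.12% of all clusters. For 7 of the 12 (58.3%) every double-heterozygous array lay below every WT array, against 7.23% of all clusters. Between the mutants 1 stromal marker, Cxcl12, was called lower (8.33%, against 5.35% of all clusters), and in Pax5+/- against WT cells 0 were called. Endothelial, erythroid, granulocyte and monocyte, T cell and mature B and plasma cell markers had mean levels of 5.90 to 6.47 in all arrays. Single genes among them were called. In Pax5+/- against WT cells Ccr7 changed by -0.89 and Sdc1 by 0.64, each 14.3% of 7 mature B and plasma cell markers (3.2% of all clusters lower, 4.28% higher). Between the mutants 1 of those 7 was higher and 2 lower (4.44% and 5.35% of all clusters). Endothelial Egfl7 changed by -0.23 and 0.36 in these comparisons, and was called in both.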

How the data were processed

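Values were read from the deposited table of 28944 transcript clusters on 12 arrays, which the authors gave without a stated scale. From their range (3.67 to 14.73) and nearly equal array medians (6.91 to 7.005) they were taken as log2 signals already normalized by the authors. Per the submitters' processing notes, Transcriptome Analysis Console 4.0.3 was used. For the summary method, genome build and annotation, the entry is: not given in the sources used here. Intensity over background was not used, so no cluster was judged present or absent.

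Samples were grouped by the genotype in their labels, and replicate numbers follow accession order and only name arrays. Linear models with a mean per genotype were fitted with limma 3.58.1 (R 4.3.3, lmFit and eBayes) to the 23410 clusters with a gene symbol on all 12 arrays, with 9 residual and 3.285 prior degrees of freedom. P-values were adjusted by the Benjamini-Hochberg method over those clusters, and a cluster was called at an adjusted p under 0.05. Clusters with several symbols (1621) were tested but stood for no gene, and 5534 clusters without a symbol were left out. Probe symbols came from the platform annotation. The code was tested on simulated data. Tables were handled with Python 3.11.15 and pandas 2.3.3, and figures drawn with matplotlib 3.10.9.

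The members and gene lists were chosen with earlier results of these data known. By rule, per-array values were to be given for called members, changes for the highest and lowest member of each role, up to 4 called genes for each further list, and Myc, Mycn, Max, Pax5 and Cd72. The other members and marker genes given with values per array, the remaining changes, and Xist and Uty were chosen after their values were seen. Alternatives comprised other normalizations and filters, other settings of the fit, treatment of close array pairs, omission of arrays, the mean of a gene's clusters, omission of X-linked members, and the threshold of the study (a change over 2-fold at an unadjusted p under 0.05).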

Additional observations from a re-analysis of the deposited data

Results flagged for a closer look

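In 4 of 141 sets of 4 arrays (47 genes in 3 groups), 1 array stood apart from the other 3 by Dixon's test of its gap over the range. Chance flags about 1 in 20 such sets. Gar1 read 9.72 in double-heterozygous replicate 3 and 9.58 to 9.60 in the others. Nop14 read 8.95 in double-heterozygous replicate 1 and 9.01 to 9.02 in the others. Taf1d read 13.39 in double-heterozygous replicate 1 and 13.32 to 13.33 in the others. Polr1d read 9.45 in Pax5+/- replicate 1 and 9.09 to 9.15 in the others. No WT array was marked in this way. In 43 of 47 genes WT replicates 2 and 4 lay above 1 and 3, and a test for 1 array apart from the other 3 can hardly mark such a split. The lack of marks thus does not mean a small spread in WT.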

How the results depend on the processing

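No paired analysis was possible because the titles number the samples 1 to 12 and the groups share no number. The closest array pairs were used instead, averaged or as a random block (correlation 0.427), although those of the double-heterozygous arrays did not stand apart. Replicate numbers link no WT array with a Pax5+/- array. Omissions from both groups thus set the WT pair with high values against the Pax5+/- pair with low values, or the reverse. In Pax5+/- against WT cells, the count of lower genes (main value 0) was 1 without dim clusters (4.32% of all clusters lower). It was 43 without replicates 1 and 3 of WT and Pax5+/- (12%), 29 without those of WT (8.71%) and 4 without those of Pax5+/- (5.23%). Without any 1 array it was 0 to 2 (2.39% to 3.61%). The count of higher genes (0) was 17 without replicates 2 and 4 of WT and Pax5+/- (3.87% of all clusters higher) and 5 without those of WT (3.77%). The median change (-0.20) was -0.695 and 0.275 without replicates 1 and 3, or 2 and 4, of both groups, and -0.5625 and 0.1125 without those of WT. All calls (1749) numbered 282 with pairs averaged, 1133 with the block, 5359 and 4184 without replicates 1 and 3 of both groups and of WT, and 224 at the threshold of the study.

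In double-heterozygous against WT cells, the count of lower genes (0) was 1 with array weights (6.01% of all clusters lower). It was 30 and 17 without replicates 1 and 3 of WT and Pax5+/- and of WT (8.97% and 5.22%). It was 1 without those of Pax5+/- (5.09%), and 0 to 1 without any 1 array (2.45% to 3.94%). The count of higher genes (0) was 32 and 22 without replicates 2 and 4 of both groups and of WT (9.94% and 7.75% of all clusters higher). The median (0.01) was -0.31 without WT replicates 1 and 3 and 0.2875 without 2 and 4, with or without the Pax5+/- ones. All calls (1821) numbered 2787 with array weights, 290 with pairs averaged, 1031 with the block, 4427 and 4780 without replicates 1 and 3, or 2 and 4, of both groups, 3645 without 2 and 4 of WT, and 214 at the threshold of the study.

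In double-heterozygous against Pax5+/- cells, the count of higher genes (1) was 0 with a common median, all clusters tested, pairs averaged, the block, without Pax5+/- replicates 2 and 4, or at the threshold of the study (0.402% to 5.01% of all clusters higher). Without any 1 array it was 0 to 1 (3.21% to 4.82%). It was 18 with only the mutants in the fit (7.16% of all clusters higher) and 2 with array weights (6.26%). It was 38 and 12 without replicates 1 and 3, or 2 and 4, of WT and Pax5+/- (11.2% and 8.83%). It was 19 without WT replicates 1 and 3 (7.98%) and likewise without 2 and 4 (8.04%), and 4 without Pax5+/- replicates 1 and 3 (4.8%). The count of lower genes (1) was 0 with quantile normalization, a trended robust prior, pairs averaged, the block, the mean of a gene's clusters, without Pax5+/- replicates 2 and 4, or at the threshold of the study (0.795% to 5.8% of all clusters lower). It was 2 without replicates 2 and 4 of WT and Pax5+/- (10.4%), and 0 to 1 without any 1 array (3.9% to 5.77%). All calls (2292) numbered 420 with pairs averaged, 1398 with the block, 4757 and 4512 without replicates 1 and 3, or 2 and 4, of both groups, 3711 and 3762 without those of WT, and 280 at the threshold of the study. The call for Polr1b was kept in 15 and lost in 15 of 30 alternatives, and that for Taf1d kept in 16 and lost in 14. Omission of X-linked members left the fit as it was, so it kept both calls by construction. The change of Taf1d turned to 0.1247 by the mean of its clusters, several of which hold identical values. Omissions of WT or Pax5+/- arrays alone were chosen after seeing the data, and the cause of these shifts was not tested. Median changes between the mutants kept their sign under every alternative that gives a median, but many of these could not move it. Omission of WT arrays, averaged or blocked pairs, another prior, or a fit of only the mutants leaves the difference of mutant means unchanged. The small number of arrays, and arrays that may be repeats, limit every comparison.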
